A study of Mus musculus with 9 samples.

Results

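The genes described here are 40 mouse genes of DNA replication and S phase, out of 54532 gene identifiers counted. They were chosen by name for their roles in origin licensing, at the replication fork, in nucleotide supply and at the passage from G1 into S phase. No measured value enters the rule, although earlier results of these data were known when the list was drawn up. Their levels were measured by RNA-seq of the mouse sublingual gland, a mucus-secreting salivary gland under the tongue, in 9 libraries from wild-type mice. The 3 groups, of 3 libraries each, were glands of mice that had no radiation, glands at day 7 and glands at day 14 after a dose of 10 Gy. Per the labels, RNA came from sections of the tissue, so every cell type in a section contributes. The labels give no strain, age or sex and do not say whether the numbered libraries of a group are separate animals, so a p-value measures the spread between these libraries, which may be partly technical.

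All 40 members were found in the count tables, and 39 had enough reads to be tested. The member left out was Orc1, the largest subunit of the origin recognition complex, on chromosome 4 (108579423 to 108614833). Its counts were 2, 0 and 8 in the control libraries, 2, 10 and 3 at day 7 and 7, 4 and 4 at day 14. These counts overlapped among all groups, and no difference in Orc1 was detectable at this depth.

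In eukaryotic cells, origins of replication are licensed in G1 by loading the Mcm2 to Mcm7 helicase onto DNA, through the origin recognition complex, Cdc6 and Cdt1. E2F transcription factors control transcription of S phase genes. At S phase entry, cyclin E kinases promote firing of licensed origins, and the loaded helicase is activated by Cdc45, the GINS complex and Mcm10. DNA polymerases, a sliding clamp and its loader, and a supply of deoxynucleotides then complete the copying, and chaperones rebuild chromatin behind the fork. Most cells of an adult salivary gland are not in S phase.

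Total counts ran from 15962399 to 19441239 per library, and a count of 3, used here as the floor, was worth between 0.154 and 0.188 CPM, a count expressed relative to its library's total. The summed level of 9 mucous acinar markers, among them Muc19, was 144000 to 200000 CPM in control, 109000 to 115000 at day 7 and 141000 to 146000 at day 14. Summed markers of other cell types also differed between groups. The sum of 6 fibroblast markers was 354 to 382, 407 to 494 and 397 to 507 CPM, that of 6 endothelial markers was 334 to 377, 416 to 500 and 393 to 439 CPM, and that of 6 macrophage markers was 110 to 126, 69.2 to 101 and 142 to 177 CPM, in control, at day 7 and at day 14. These sums are led by a few genes. At day 7 edgeR called 3 of 6 fibroblast markers higher and 2 of 6 macrophage markers lower (C1qa and C1qb). It called 2 of 6 endothelial markers higher, Tek and Vwf, and Vwf held 310 CPM of the control sum. After the length and GC correction described below, none of the endothelial or macrophage markers was called. Of the fibroblast markers, 2 were then higher and 1 lower, and 5 mucous acinar markers were lower. The sum of 5 plasma cell markers was 1580 to 1670, 1240 to 1360 and 1290 to 1590 CPM, and that of 5 Schwann cell markers 73.9 to 84.1, 57.2 to 65.0 and 64.6 to 71.1 CPM, in the same order. The 7 T and NK cell markers summed to 2.49 to 3.71, 1.48 to 1.77 and 1.70 to 4.88 CPM, and the 5 B cell markers to at most 1.75 CPM in any library, and no marker of these lists was at 0 in all libraries. The part of these cell types in the results below was not tested. In tissue RNA, more cells of a type and more RNA per cell cannot be told apart.

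Values below are CPM scaled between libraries by the trimmed mean of M values (TMM). Log2 fold changes, standard errors (SE) and adjusted p-values come from edgeR's quasi-likelihood test over all 9 libraries, adjusted by Benjamini-Hochberg over the 15348 genes tested, with a threshold of 0.05.

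At day 7, S phase transcripts rose in part. Of the 39 tested members, 13 were higher than in control (33.3%, beside 15.8% of all genes tested) and 1 was lower (2.56%, beside 14.8% of all genes). The 13 were Mcm2, Mcm3, Mcm4 and Mcm6 of the helicase, Pola1, Pole and Fen1 of the fork, Rrm1, Rrm2 and Tk1 of nucleotide supply, Uhrf1 and Chaf1b of chromatin copying, and E2f8. The lower member was Gins4. The other 25 members did not pass the test. The fitted change was above 0 in 31 of 39, the median log2 change was 0.495 beside 0.021 over all genes, and the range ran from -0.42 (Gins4) to 2.52 (E2f8). In 16 members every day 7 library was above every control library, which held for 22.2% of all genes, and in 1 every day 7 library was below, which held for 21.7%.

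At day 14 the same comparison called none of the 39 members. The median log2 change against control was 0.071, beside 0.011 over all genes. Both comparisons use the same 3 control libraries, so their values are not independent. Between the irradiated groups, 4 members were lower at day 14 than at day 7, namely Rrm1, Rrm2, Uhrf1 and Ccne1.

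**Figure D1:**
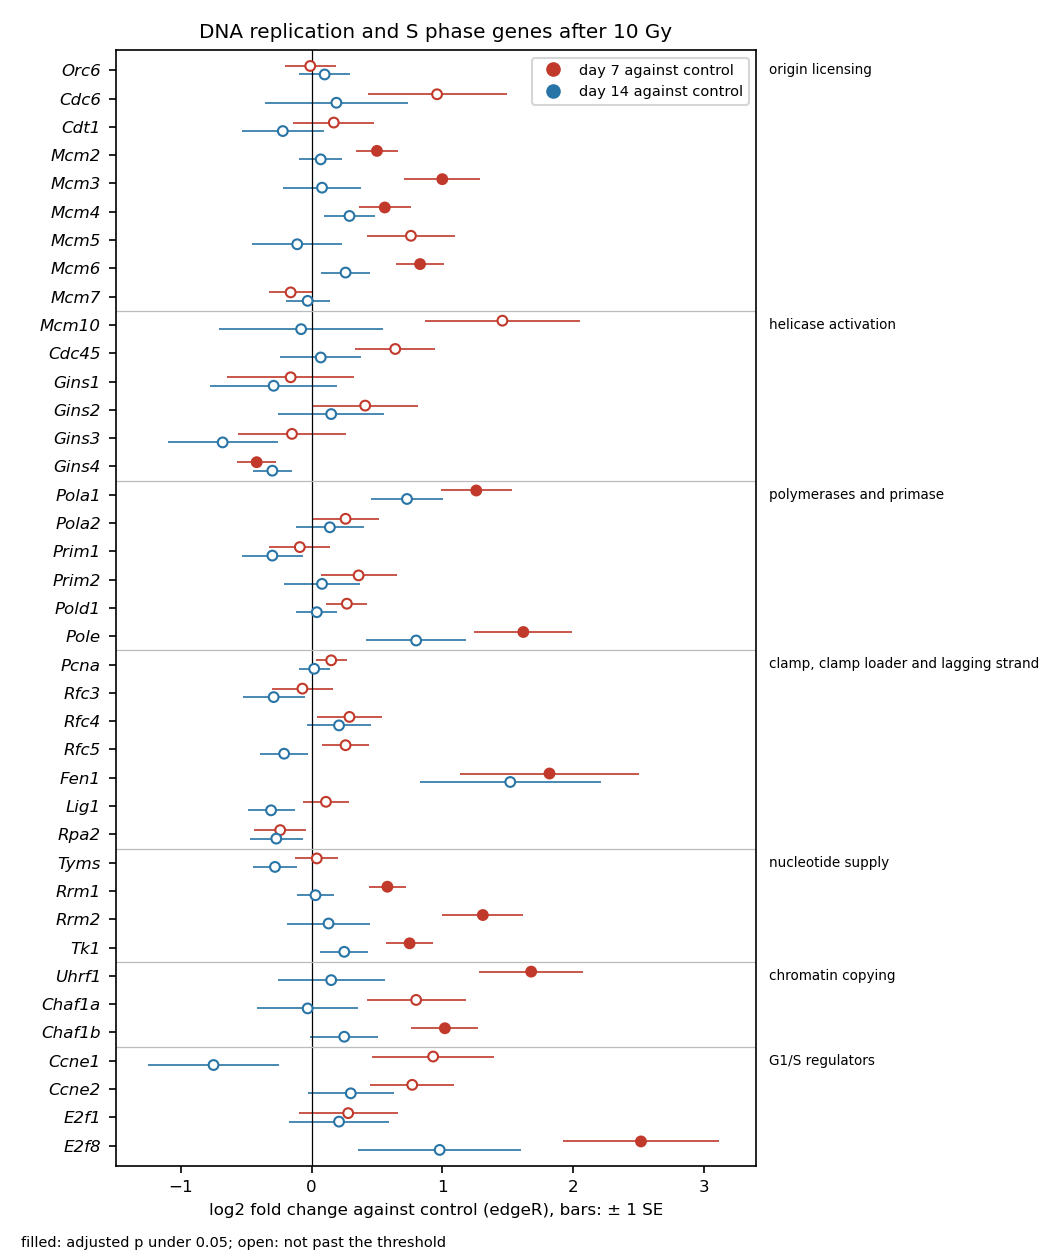
Log2 fold change of the 39 tested members against control at day 7 and at day 14 (horizontal axis, points with bars of 1 SE), in order of role (vertical axis); filled points have an adjusted p under 0.05. The filled points are the 13 higher members and the 1 lower member of day 7, and no day 14 point is filled.

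Origin licensing had 4 higher members of 9 tested at day 7 (44.4%, beside 15.8% of all genes), with a median log2 change of 0.559. All 4 belonged to the Mcm2 to Mcm7 helicase, the ring that unwinds DNA at the fork. Mcm6 (chromosome 1, 128331590 to 128359664) stood at 6.59, 10.4 and 7.52 CPM in the control libraries, at 12.3, 15.8 and 15.5 CPM at day 7 and at 10.2, 9.30 and 9.75 CPM at day 14. The day 7 libraries lay above all others, and those of day 14 lay within the range of the controls. Mcm6 rose 1.78-fold at day 7 (log2 0.83, SE 0.184, adjusted p = 0.00231).

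Mcm3 (chromosome 1, 20802968 to 20820312) had 1.95, 3.85 and 2.49 CPM in control, 4.51, 5.22 and 6.77 CPM at day 7 and 2.69, 3.24 and 2.82 CPM at day 14. Its day 7 libraries were above all the others. Mcm3 rose 2.00-fold (log2 1.00, SE 0.291, adjusted p = 0.0141), a call that ended when control library 1 or day 7 library 3 was left out.

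Mcm2 (chromosome 6, 88883474 to 88898780) measured 11.2, 9.98 and 12.2 CPM in control, 13.6, 14.7 and 18.6 CPM at day 7 and 11.2, 12.8 and 11 CPM at day 14. Mcm4 (chromosome 16, 15623897 to 15637400) measured 6.16, 6.95 and 6.62 CPM in control, 7.22, 10.3 and 11.5 CPM at day 7 and 7.89, 7.6 and 8.67 CPM at day 14. In both genes the day 7 libraries did not overlap the controls, and in Mcm4 those of day 14 did not either. Mcm2 rose 1.41-fold at day 7 (log2 0.50, SE 0.162, adjusted p = 0.0266) and Mcm4 rose 1.47-fold (log2 0.56, SE 0.197, adjusted p = 0.038). Leaving out control library 1, control library 2 or day 7 library 3 ended the Mcm2 call. Leaving out any control library, or the second or last of the day 7 libraries, ended the Mcm4 call. A fit with no filter on low counts, and one of only the 6 libraries compared, also ended it. In all, the Mcm4 call was lost under 10 of 20 alternative settings.

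The other helicase subunits did not pass. Mcm5 had 3.66, 5.87 and 3.28 CPM in control, 4.62, 8.74 and 8.28 CPM at day 7 and 2.45, 3.29 and 6.07 CPM at day 14, so its groups overlapped (log2 0.76 at day 7, SE 0.334, adjusted p = 0.096 by edgeR). It was called higher with no filter on low counts and when day 7 library 1 was left out. Mcm7 had 22.9, 22.5 and 16.1 CPM in control, 14.2, 18.4 and 22.5 CPM at day 7 and 20.4, 18.9 and 21 CPM at day 14. Its fitted change at day 7 was -0.16, with a 95% interval from -0.51 to 0.20, and its libraries overlapped in every comparison.

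Per kilobase of exon, the subunits of the ring differed in level. The length used here joins all annotated exons of a gene, and so need not be that of the transcript present. In control, Mcm3 was lowest at 0.736 CPM per kb and Mcm7 highest at 4.63 CPM per kb, a ratio of 6.29. At day 7 these subunits stood at 1.47 and 4.15 CPM per kb, a ratio of 2.82, and at day 14 at 0.777 and 4.54 CPM per kb, a ratio of 5.84. Mcm3 was the lowest and Mcm7 the highest subunit in all 3 groups. The ratios are descriptions and were not tested.

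Among the loaders, Orc6, a small subunit of the origin recognition complex, had 7.01, 7.15 and 6.96 CPM in control and 8.04, 5.93 and 7.04 CPM at day 7. Its log2 change was -0.01, with a 95% interval from -0.41 to 0.40. Cdc6 and Cdt1, which bring the helicase to origins, had log2 changes of 0.96 (SE 0.532, edgeR adjusted p = 0.184) and 0.17 (SE 0.31, adjusted p = 0.714), with overlapping libraries.

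To place the licensing genes beside their promoters, RefSeq promoter sequences (GRCm38.p6, 250 bases before to 50 bases after the annotated start) were searched for letters bound by E2F factors. The letters were TTTCCCGC, TTTCGCGC, TTTGCCGC and TTTGGCGC, read on both strands with overlaps allowed. Of the 40 members, 33 matched the table, with 38 promoters. Gins1, Gins2, Gins4, Prim2, Mcm4, Pole and Ccne2 did not match. The letters stood in 13 of the 38 member promoters (34.2%) and in 744 of 32851 promoters in the table (2.26%). They stood in 4 of 13 promoters of members higher at day 7 (30.8%) and in 9 of 25 promoters of the other members (36.0%). The promoters below are those of Mcm3 and Mcm6, which rose, and of Mcm7, which did not pass, with these letters in capitals. That of E2f8, the member with the largest rise, holds none of these letters. Its capitals mark instead the CHR letters TTTGAA or TTCGAA, also read on both strands. The stretch in capitals, TTCAAA, is TTTGAA read on the other strand. Each is read 5′ to 3′ on the minus strand, with the start of transcription at base 251: Mcm3 from chr1:20820263-20820562, Mcm6 from chr1:128359656-128359955, Mcm7 from chr5:138171834-138172133 and E2f8 from chr7:48881547-48881846.
Mcm3: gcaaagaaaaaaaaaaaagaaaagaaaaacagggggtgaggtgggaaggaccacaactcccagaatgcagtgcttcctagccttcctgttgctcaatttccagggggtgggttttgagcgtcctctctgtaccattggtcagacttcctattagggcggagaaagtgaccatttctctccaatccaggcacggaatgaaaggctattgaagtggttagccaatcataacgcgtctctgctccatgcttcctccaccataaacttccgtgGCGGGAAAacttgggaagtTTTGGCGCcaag
Mcm6: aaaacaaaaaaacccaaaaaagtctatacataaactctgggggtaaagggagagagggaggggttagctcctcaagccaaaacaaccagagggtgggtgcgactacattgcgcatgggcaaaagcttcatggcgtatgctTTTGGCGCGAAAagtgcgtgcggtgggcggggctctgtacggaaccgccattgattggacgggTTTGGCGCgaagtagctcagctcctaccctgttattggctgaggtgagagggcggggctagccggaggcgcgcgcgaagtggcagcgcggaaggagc
Mcm7: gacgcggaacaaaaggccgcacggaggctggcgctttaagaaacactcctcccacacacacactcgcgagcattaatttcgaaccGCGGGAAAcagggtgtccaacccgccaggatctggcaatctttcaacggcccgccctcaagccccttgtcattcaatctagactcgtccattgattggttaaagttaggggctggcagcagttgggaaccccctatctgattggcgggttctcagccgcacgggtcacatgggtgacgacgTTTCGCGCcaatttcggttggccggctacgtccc
E2f8: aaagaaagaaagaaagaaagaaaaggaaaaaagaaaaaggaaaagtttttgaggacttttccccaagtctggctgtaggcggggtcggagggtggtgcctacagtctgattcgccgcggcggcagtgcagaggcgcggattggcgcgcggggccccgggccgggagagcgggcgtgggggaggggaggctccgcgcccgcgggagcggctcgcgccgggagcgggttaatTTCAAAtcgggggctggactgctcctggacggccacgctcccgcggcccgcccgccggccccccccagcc

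In the sequences above, the matches began at bases 270 and 289 in Mcm3, both after the start of transcription, at bases 141, 145 and 204 in Mcm6, and at bases 86 and 267 in Mcm7. The first pair in Mcm6 overlap on opposite strands, so they form a single run of capitals. The E2f8 match began at base 231, 20 bases before the start. CCAAT, read on both strands, stood in 57.9% of member promoters beside 37.4% of all, and the CHR letters in 18.4% beside 19.2%. A match is a description of the sequence, and its absence says nothing about a factor.

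Helicase activation had no higher member among 6 tested by edgeR and 1 lower (16.7%, near the 14.8% of all genes). At an unadjusted p under 0.05 by edgeR there were 3 of 6 (Mcm10, Cdc45 and Gins4), beside 6296 of all 15348 genes tested. Of this group limma-voom called Cdc45 higher. Mcm10, a fork factor that helps activate the helicase, had 0.427, 1.75 and 0.283 CPM in control, 1.57, 1.65 and 3.44 CPM at day 7 and 1.05, 0.425 and 0.813 CPM at day 14. Control library 2 lay within the day 7 range, and the change did not pass (log2 1.46, SE 0.593, adjusted p = 0.0699 by edgeR). Without control library 2 it did. Cdc45, the partner of the helicase in the active fork, had 2.68, 1.69 and 3.51 CPM in control, 3.86, 3.63 and 4.89 CPM at day 7 and 3.04, 2.97 and 2.28 CPM at day 14. Every day 7 library of Cdc45 was above every control, without passing the test (log2 0.64, SE 0.306, adjusted p = 0.12 by edgeR).

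The 4 GINS subunits form a single complex that joins the helicase, and among their transcripts Gins4 alone passed the test at day 7. Gins4 (chromosome 8, 23226616 to 23237659) had 18.7, 22.4 and 16.3 CPM in control, 12.7, 14.5 and 15.7 CPM at day 7 and 14.5, 15.1 and 16.9 CPM at day 14. Its day 7 libraries were below all controls, while those of day 14 overlapped them. Gins4 fell by 0.42 on the log2 scale at day 7 (SE 0.151, adjusted p = 0.0424). The call ended when control library 1 or 2 was left out, when day 7 library 1 or 2 was left out, and after a correction of every library for gene length and GC content (log2 -0.18, adjusted p = 0.418 by edgeR).

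Gins1 had 0.732, 2.23 and 0.962 CPM in control, 1.25, 1.10 and 1.13 CPM at day 7 and 0.818, 1.22 and 1.14 CPM at day 14. Gins2 had 1.16, 1.55 and 1.98 CPM in control, 1.25, 2.14 and 2.85 CPM at day 7 and 2.10, 1.43 and 1.68 CPM at day 14. Gins3 had 3.35, 1.82 and 1.47 CPM in control, 2.12, 1.32 and 2.53 CPM at day 7 and 1.69, 1.54 and 0.921 CPM at day 14. In these 3 genes all groups overlapped, with day 7 log2 changes of -0.16, 0.41 and -0.15, none past the threshold. Per kilobase, Gins4 was the most abundant subunit and Gins2 the least in every group, at 14.2 and 0.382 CPM per kb in control (a ratio of 37.2), 10.6 and 0.508 at day 7 (20.9) and 11.5 and 0.424 at day 14 (27.1). This order depends on the lengths used. In CPM not divided by length, Gins1 and not Gins2 had the lowest mean in every group (1.31 and 1.56 CPM in control). The gene Gse1 covers 67.3% of the exonic bases of Gins2 on the other strand, so the Gins2 counts are uncertain.

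**Figure D2:**
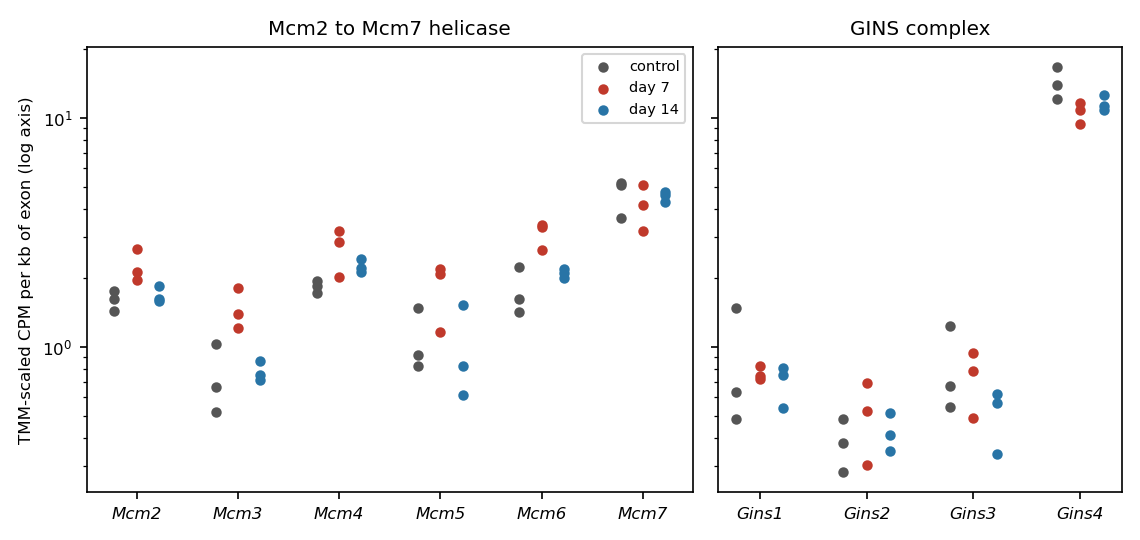
Level per kilobase of exon (TMM-scaled CPM per kb, log axis) of the Mcm2 to Mcm7 subunits and of the 4 GINS subunits, with a point for each library coloured by group. Mcm3 is lowest and Mcm7 highest in the ring by group mean (0.736 and 4.63 CPM per kb in control), and Gins4 lies above the other GINS subunits in every library.

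Of the 6 polymerase and primase genes, 2 rose at day 7 (33.3%, beside 15.8% of all genes). They were the catalytic subunits that start DNA synthesis and copy the leading strand. Pola1, the catalytic subunit of DNA polymerase alpha (chromosome X, 93304767 to 93632155), had 2.20, 2.09 and 3.17 CPM in control, 5.16, 5.44 and 7.31 CPM at day 7 and 4.32, 3.29 and 4.77 CPM at day 14. All libraries of both irradiated groups were above the controls. Pola1 rose 2.39-fold at day 7 (log2 1.26, SE 0.273, adjusted p = 0.00203), and at day 14 the log2 change was 0.73 (SE 0.275, adjusted p = 0.139 by edgeR).

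Pole, the catalytic subunit of DNA polymerase epsilon (chromosome 5, 110286306 to 110337474), had 1.16, 1.28 and 0.848 CPM in control, 2.82, 4.12 and 3.17 CPM at day 7 and 2.10, 1.17 and 2.44 CPM at day 14. Its day 7 libraries were above all others, and day 14 overlapped control. Pole rose 3.07-fold (log2 1.62, SE 0.376, adjusted p = 0.00327). The other members of the group did not pass. Pola2, the accessory subunit that pairs with Pola1, had a day 7 log2 change of 0.26, Prim1 and Prim2, the primase subunits, had -0.09 and 0.36, and Pold1, the catalytic subunit of polymerase delta, had 0.27. Libraries of all 4 overlapped those of the controls.

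The clamp, its loader and the lagging strand enzymes had 1 higher member of 7 (14.3%, near the 15.8% of all genes). Fen1, the flap endonuclease that trims Okazaki fragments (chromosome 19, 10199132 to 10204169), was scarce, at 0.122, 0.675 and 0.226 CPM in control, 0.923, 2.03 and 0.645 CPM at day 7 and 1.52, 0.850 and 0.542 CPM at day 14. The groups overlapped through control library 2, and the control counts were 2, 10 and 4 reads, the first of them under the floor. Fen1 rose 3.54-fold at day 7 (log2 1.82, SE 0.685, adjusted p = 0.0497). This call ended under 12 of 20 alternative settings, which included leaving out control libraries 1 or 3 and, among irradiated glands, libraries 1 or 2 of either day, and its adjusted p ran from 0.0222 to 0.275 by edgeR and the other tools. The predicted gene Gm10143 covers 78.8% of its exonic bases on the other strand.

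Pcna, the sliding clamp and per kilobase the most abundant of these 7 genes at 15.6 CPM per kb in control, had 37.9, 37.5 and 37.2 CPM in control, 34.9, 41.0 and 49.4 CPM at day 7 and 37.0, 37.7 and 39.4 CPM at day 14. Day 7 spanned both sides of the controls, and the log2 change was 0.15, with a 95% interval from -0.09 to 0.40. The clamp loader subunits Rfc3, Rfc4 and Rfc5 had log2 changes of -0.07, 0.29 and 0.26. Rfc5 had 10.7, 12.2 and 8.37 CPM in control, 10.4, 14.4 and 12.5 CPM at day 7 and 8.47, 10.1 and 8.45 CPM at day 14, so day 7 overlapped control. Lig1, the ligase that joins Okazaki fragments, and Rpa2, a subunit of the single-strand binding protein, had log2 changes of 0.11 and -0.24. None passed the test, and Rfc4 was the only one of the 5 with all day 7 libraries above the controls.

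In nucleotide supply, 3 of 4 members rose. Rrm1, the large subunit of ribonucleotide reductase (chromosome 7, 102441695 to 102469771), had 17.2, 16.1 and 17.3 CPM in control, 22.8, 25.8 and 27.4 CPM at day 7 and 16.4, 20.4 and 15.1 CPM at day 14. Its day 7 libraries were above all others, and day 14 overlapped control. Rrm1 rose 1.5-fold at day 7 (log2 0.58, SE 0.14, adjusted p = 0.00406). With the correction for length and GC content the change was 0.13 (adjusted p = 0.566 by edgeR).

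Rrm2, the small subunit whose synthesis is tied to S phase (chromosome 12, 24708241 to 24714146), had 2.56, 4.25 and 2.83 CPM in control, 4.94, 10.7 and 8.17 CPM at day 7 and 4.73, 2.55 and 3.25 CPM at day 14. The day 7 libraries again did not overlap the rest. Rrm2 rose 2.48-fold (log2 1.31, SE 0.309, adjusted p = 0.00368). Tk1, the thymidine kinase of the salvage route (chromosome 11, 117815526 to 117826092), had 10.4, 10.3 and 11.3 CPM in control, 15.2, 20.1 and 18.4 CPM at day 7 and 15.5, 9.08 and 13.6 CPM at day 14. It rose 1.68-fold at day 7 (log2 0.75, SE 0.182, adjusted p = 0.00444), and its day 14 libraries fell on both sides of the controls.

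Tyms, which makes thymidylate from deoxyuridylate, did not follow. It had 10.9, 10.2 and 9.39 CPM in control, 10.3, 10.4 and 10.5 CPM at day 7 and 7.71, 7.81 and 9.48 CPM at day 14. The day 7 libraries lay within the range of the controls, and the log2 change was 0.04 with a 95% interval from -0.31 to 0.38.

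Of the 3 genes of chromatin copying, 2 rose at day 7 (66.7%, beside 15.8% of all genes). Uhrf1, which reads hemimethylated DNA and recruits the maintenance methyltransferase (chromosome 17, 56303321 to 56323486), had 1.65, 4.18 and 1.81 CPM in control, 4.40, 9.78 and 10.2 CPM at day 7 and 3.51, 3.19 and 1.73 CPM at day 14. Control library 2 came close to the lowest day 7 library without overlap, and day 14 lay within the controls. Uhrf1 rose 3.21-fold (log2 1.68, SE 0.397, adjusted p = 0.00515).

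Chaf1b, the middle subunit of chromatin assembly factor 1 (chromosome 16, 93883901 to 93906115), had 3.6, 2.90 and 3.28 CPM in control, 5.38, 6.32 and 8.22 CPM at day 7 and 3.10, 3.82 and 4.71 CPM at day 14, with day 7 above all the others. Chaf1b rose 2.03-fold (log2 1.02, SE 0.256, adjusted p = 0.00537). Chaf1a, the large subunit of the same factor, had a log2 change of 0.80 (SE 0.378, adjusted p = 0.116 by edgeR), and its lowest day 7 library lay among the controls. The gene Ubxn6 covers 52.5% of the exonic bases of Chaf1a on the other strand.

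Of the 4 G1/S regulators, E2f8 rose. E2f8, an atypical E2F that represses E2F targets (chromosome 7, 48866429 to 48881596), had 0.549, 0.607 and 0.396 CPM in control, 1.41, 4.56 and 3.01 CPM at day 7 and 1.40, 0.212 and 1.46 CPM at day 14. Day 7 was above control in every library, and day 14 held libraries both above and below the controls. E2f8 rose 5.75-fold (log2 2.52, SE 0.598, adjusted p = 0.00391). E2f1, an activating E2F, had 2.68, 2.16 and 2.43 CPM in control, 1.74, 2.75 and 4.35 CPM at day 7 and 4.38, 1.75 and 2.33 CPM at day 14, a wide spread in both irradiated groups (log2 0.28 at day 7, SE 0.38, adjusted p = 0.617 by edgeR).

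Cyclin E, the kinase partner that drives cells into S phase, is encoded by Ccne1 and Ccne2. Ccne1 (chromosome 7, 38097984 to 38107534) had 1.04, 1.82 and 1.58 CPM in control, 2.23, 4.29 and 1.93 CPM at day 7 and 1.58, 0.637 and 0.433 CPM at day 14. Ccne2 had 2.13, 1.96 and 2.43 CPM in control, 3.58, 3.46 and 4.14 CPM at day 7 and 3.45, 1.54 and 3.09 CPM at day 14. Both cyclins had every day 7 library above every control, but neither passed at day 7 (log2 0.93, SE 0.466, adjusted p = 0.142 for Ccne1 and log2 0.77, SE 0.322, adjusted p = 0.076 for Ccne2, by edgeR).

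**Figure D3:**
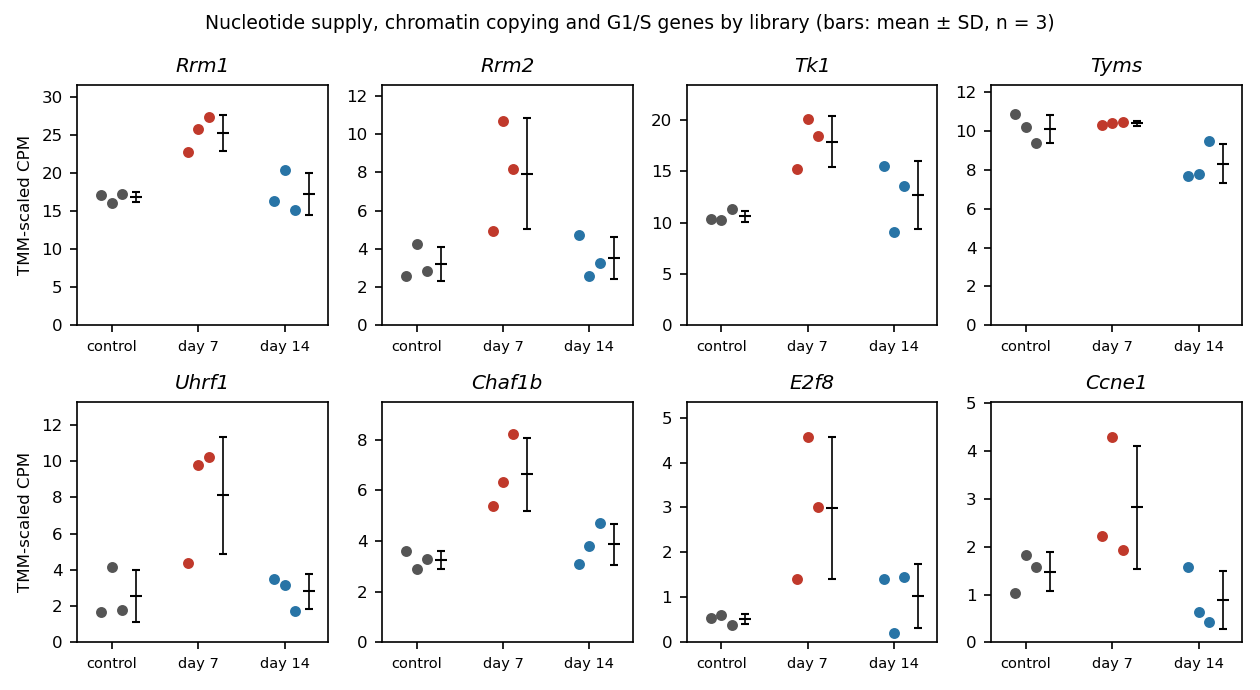
TMM-scaled CPM of 8 members in each library (points) with the mean and SD of the 3 libraries of each group (bars); each panel starts at 0. Day 7 lies above control without overlap in Rrm1, Rrm2, Tk1, Uhrf1, Chaf1b, E2f8 and Ccne1, whereas the day 7 libraries of Tyms (10.3 to 10.5 CPM) lie within the controls.

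The comparison of day 14 with control asks what persisted. By edgeR no member was higher (1.13% of all genes were) and none was lower (0.632% of all genes were). At an unadjusted p under 0.05 by edgeR there were 2 of 39 members, beside 3271 of all 15348 genes tested. These were Pola1 and Fen1, named after their values were seen. DESeq2 and limma-voom also called 0 members. In 2 members, Mcm4 and Pola1, every day 14 library was above every control, which held for 12.4% of all genes. Log2 changes ran from -0.75 (Ccne1) to 1.52 (Fen1), and the 95% intervals spanned 0 in all tested members except Pola1 and Fen1. That of Pola1 was 0.15 to 1.30, that of Mcm6 -0.13 to 0.65 and that of Rrm2 -0.53 to 0.79.

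The comparison of day 14 with day 7 asks where the irradiated groups differ. By edgeR no member was higher (3.72% of all genes were; also 0 by DESeq2 and limma-voom), with no member higher at an unadjusted p under 0.05, and 4 of 39 were lower (10.3%, beside 2.87% of all genes). The median log2 difference was -0.424, beside 0.001 over all genes, and in 15 members every day 14 library was below every day 7 library, which held for 13.5% of all genes. From day 7 to day 14, Rrm1 fell by 0.55 on the log2 scale (SE 0.139, edgeR adjusted p = 0.0236) and Rrm2 fell by 1.18 (SE 0.305, adjusted p = 0.0266). Uhrf1 fell by 1.53 (SE 0.391, adjusted p = 0.0311) and Ccne1, which had not passed against control, fell by 1.68 (SE 0.484, adjusted p = 0.044). The libraries listed above for these 4 genes did not overlap between day 7 and day 14.

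With any library left out, the log2 difference between day 14 and day 7 ran from -1.83 to -1.28 for Uhrf1, from -1.45 to -0.90 for Rrm2, from -0.70 to -0.46 for Rrm1 and from -2.38 to -1.24 for Ccne1, while the number of calls moved. Without day 7 library 2 none of the 39 members was lower, without day 7 library 3 or day 14 library 2 or 3 there was 1, without day 14 library 1 there were 2, and without control library 1 or 3 there were 6. E2f8, with a log2 difference of -1.54 (SE 0.551, edgeR adjusted p = 0.098), did not pass. Mcm6 (-0.58, adjusted p = 0.0617), Mcm3 (-0.91, adjusted p = 0.0622) and Chaf1b (-0.77, adjusted p = 0.0703) did not pass by edgeR, and DESeq2 and limma-voom called all 3 lower. Of 20 alternatives, 7 called Mcm6 and 5 called Mcm3.

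The day 7 libraries were not alike in these genes. Of the 39 tested members, 28 had their lowest day 7 value in library 1 and 23 their highest in library 3. The median log2 difference of the members from the control mean was 0.179 in day 7 library 1, 0.523 in library 2 and 0.684 in library 3. Mki67, a general proliferation marker named after its values were seen, had 27.2, 39.8 and 29.2 CPM in these libraries, so it put library 2 and not library 3 highest. In control, library 2 held the highest value of 18 members, with 4.18 CPM of Uhrf1 and 1.75 CPM of Mcm10. At day 14, the medians were 0.090, -0.074 and 0.054. Without day 7 library 1, 14 members were higher, and without control library 1, 9 were.

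**Figure D4:**
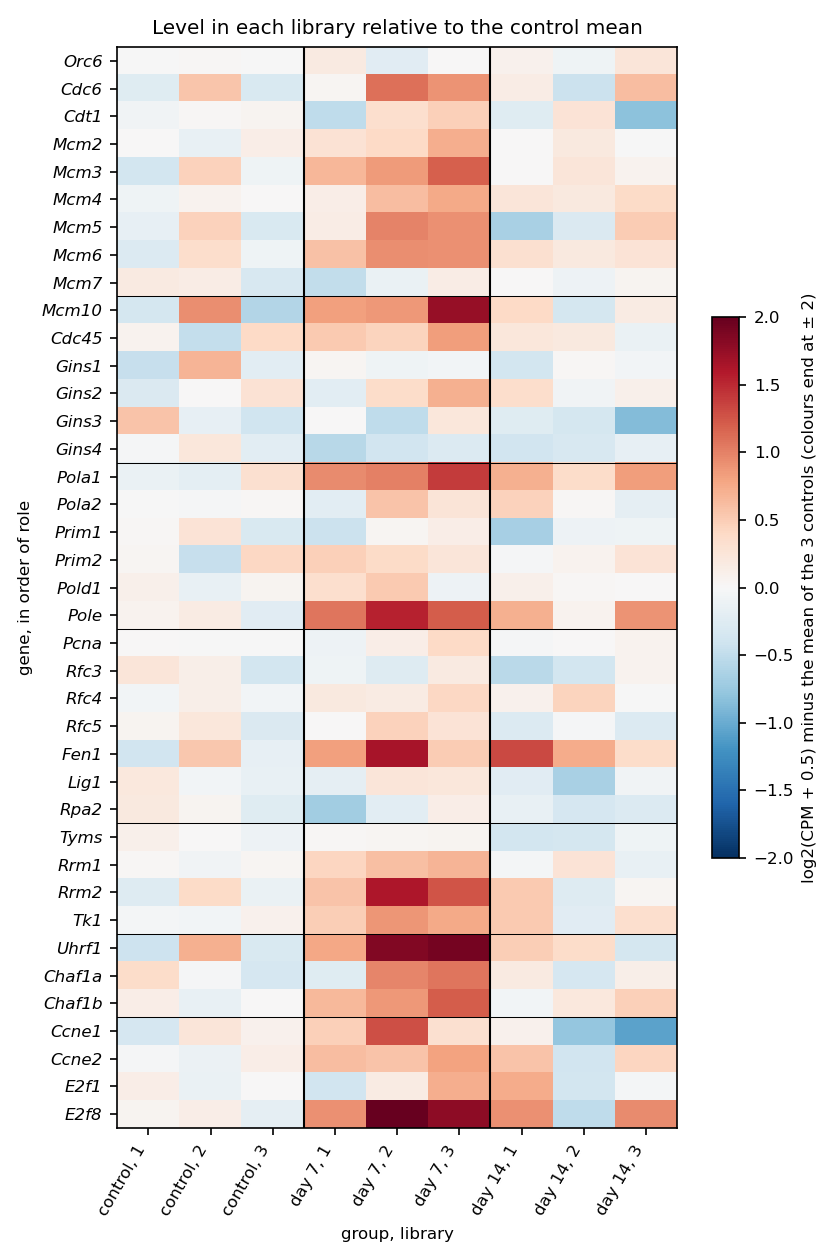
Level of the 39 tested members (rows, in order of role) in each library (columns), as log2(CPM + 0.5) minus the mean of the 3 controls; colours end at 2 on either side. Day 7 libraries 2 and 3 are redder than library 1 (medians 0.523 and 0.684 against 0.179); the day 14 medians are 0.090, -0.074 and 0.054.

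Of other replication and G1/S genes, 82 in 4 lists, 27 of 81 tested were higher at day 7 (33.3%, beside 15.8% of all genes). Another 6 were lower (7.41%, beside 14.8% of all genes), and the median log2 change was 0.248. Among further replication machinery, 10 of 34 were higher (29.4%) and 3 lower (8.82%). Clspn, the checkpoint mediator Claspin that travels with the fork, rose by 3.94 on the log2 scale (SE 0.707, edgeR adjusted p = 0.000479), from 0.122, 0.337 and 0.113 CPM in control, where libraries 1 and 3 were under the floor, to 1.19, 4.34 and 3.33 CPM at day 7, while Pole3 and Pole4, the small histone-fold subunits of polymerase epsilon, fell by 0.63 (SE 0.108, adjusted p = 0.00031) and 0.71 (SE 0.159, adjusted p = 0.00248). The catalytic subunit Pole and these accessory subunits changed in opposite directions, also after correction for length and GC content (1.34 for Pole, -0.48 for Pole3 and -0.76 for Pole4). Rnaseh2c, a subunit of ribonuclease H2, which removes ribonucleotides from DNA, fell by 0.77 (SE 0.117, adjusted p = 0.000117).

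In further nucleotide supply, 2 of 10 were higher and 1 lower, shares of 20% and 10.0% near those over all genes (15.8% and 14.8%), and with the correction 1 was higher and 2 were lower. Dck, the deoxycytidine kinase, rose by 0.94 (SE 0.282, edgeR adjusted p = 0.0168), Rrm2b, the p53-responsive small subunit of ribonucleotide reductase, rose by 0.60 (SE 0.169, adjusted p = 0.0118) and Nme1, a nucleoside diphosphate kinase, fell by 0.58 (SE 0.134, adjusted p = 0.00303). In further chromatin copying, 3 of 9 were higher (33.3%) and none was lower. They were Hells, a remodelling helicase needed for DNA methylation (log2 1.77, SE 0.419, adjusted p = 0.0038), Dnmt1, the maintenance methyltransferase that Uhrf1 recruits (log2 0.54, SE 0.141, adjusted p = 0.00691), and Slbp, which binds the stem-loop of histone mRNAs (log2 0.46, SE 0.162, adjusted p = 0.0374). With the correction the calls of Rrm2b (0.11), Dnmt1 (0.39) and Slbp (0.17) were lost.

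Among 28 further G1/S regulators tested, 12 were higher (42.9%, beside 15.8% of all genes) and 2 lower (7.14%, beside 14.8%) at day 7, with log2 changes from -0.66 to 2.38. The highest, named after its values were seen, was E2f7, a second atypical E2F (SE 0.846, edgeR adjusted p = 0.0392), with 0, 6 and 4 counts in control and 22, 26 and 13 at day 7. The 4 genes with the smallest p were Rb1, Cdkn1a, Rbl2 and Rbl1. Rb1, the retinoblastoma protein, rose by 1.44 (SE 0.173, edgeR adjusted p = 2.52e-05), its relatives Rbl1 and Rbl2 by 1.25 (SE 0.238, adjusted p = 0.000768) and 0.59 (SE 0.107, adjusted p = 0.000495), and Cdkn1a, the p21 inhibitor of cyclin-dependent kinases, by 1.30 (SE 0.176, adjusted p = 4.88e-05). Cdc25a, a phosphatase that activates the S phase kinases, fell by 0.42 (SE 0.128, adjusted p = 0.0193) and Cables1 by 0.66 (SE 0.161, adjusted p = 0.00442). At day 14, when no member passed against control, Cdkn1a was still higher by 1.49 (SE 0.175, edgeR adjusted p = 0.000905), Rb1 by 0.83 (SE 0.174, adjusted p = 0.0303) and Rbl1 by 0.94 (SE 0.24, adjusted p = 0.0493). With the correction Rb1 and Rbl1 did not pass at day 14 (edgeR adjusted p = 0.0682 and 0.131).

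Of 25 mitosis genes, 24 were higher at day 7, with a median log2 change of 2.725, beside 0.495 for the replication and S phase members. Cdc20, which switches on the ubiquitin ligase that starts anaphase, rose by 2.63 on the log2 scale (SE 0.284, edgeR adjusted p = 1.02e-05). Against control at day 14, 0 of 25 passed by edgeR (8 at an unadjusted p under 0.05, beside 3271 of all 15348 genes tested). Of all genes, 1.13% were higher and 0.632% lower in that comparison. Between the irradiated groups, 20 mitosis genes were lower at day 14 than at day 7 (80.0%, beside 2.87% of all genes). The difference between the lists was not tested. Replication-dependent histone genes, as a class expressed mainly in S phase, were taken by symbol alone (Hist1h to Hist4h). The S phase expression of each gene was not checked. Most were below the filter, with 20 of 70 tested. Of these, 3 were higher (15%, beside 15.8% of all genes) and 1 lower (5.0%, beside 14.8%) at day 7, so the share of higher genes was near the background. These genes, named after their values were seen, were Hist1h1e (log2 0.88), Hist2h4 (1.25) and Hist4h4 (2.54), and Hist1h2bc (-0.47). Many of these transcripts lack a poly(A) tail, and the method of RNA selection was not given in the sources used here.

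**Figure D5:**
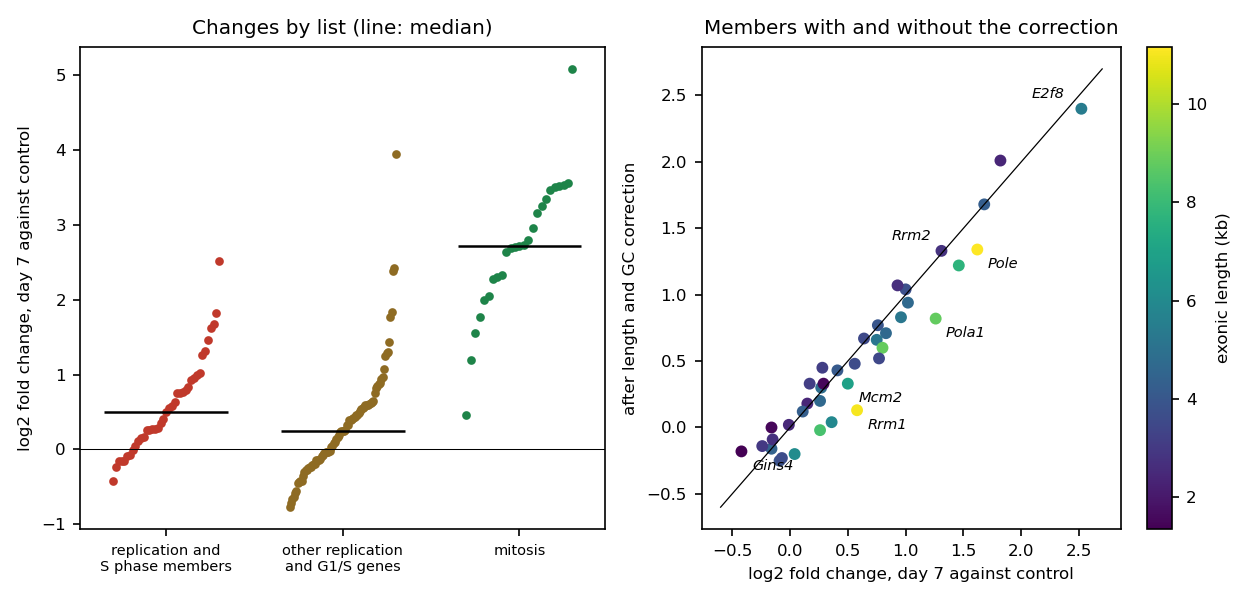
Left, log2 fold change at day 7 against control of each gene in 3 lists, with the median as a line (0.495 for the members, 0.248 for other replication and G1/S genes and 2.725 for mitosis). Right, the members' day 7 log2 fold change before (horizontal axis) and after (vertical axis) correction for length and GC content, coloured by exonic length, with the line of equality; Rrm1 moves from 0.58 to 0.13 and E2f8 from 2.52 to 2.40.

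Fold changes at day 7 moved with gene length over all genes tested, from a median of -0.375 in the decile of shortest exonic length to 0.379 in that of the longest. The members were of ordinary length, with a median of 4097 bases beside 4111 over all genes. After correction for length and GC content, 10 of the 39 tested members were higher and none was lower at day 7. The median log2 change of the tested members was 0.425. The calls lost were Mcm2 (0.33), Mcm4 (0.48), Rrm1 (0.13) and Gins4 (-0.18). Between day 14 and day 7, Rrm2, Uhrf1 and Ccne1 passed as lower, and Rrm1 did not. Over the other lists the correction left 12 higher and 13 lower of 81 tested, with a median of 0.048. Over all genes it left 1165 higher and 2169 lower at day 7, with a median of -0.052. Without it, 2419 of the 15348 genes tested were higher and 2273 lower, so the background of higher genes shrank more than that of lower genes.

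Across 20 alternative settings, 6 of the 14 calls of day 7 held in each, and these were Uhrf1, Pola1, Pole, Rrm2, Chaf1b and E2f8. Tk1 and Mcm6 failed only where a log2 change of at least 1 was also required. Another 6 members, not called at day 7, were called higher under some alternative, namely Mcm5, Mcm10, Cdc45, Chaf1a, Ccne2 and Pold1. Besides those named above, 11 members overlap an exon of a gene on the other strand by at most 17.4% of their length, and strandedness was not given in the sources used here. Copies with at least 95% identity over at least 400 bases exist for Cdc6, Mcm7, Pcna, Rfc5, Rrm2, Tyms and Uhrf1. Over all libraries the copy of Pcna had 13 counts beside 6215, that of Rfc5 had 33 beside 1682, and the other copies had 0.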

How the data were processed

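Whole-number counts per gene were deposited by the authors for 9 libraries, with no normalisation. STAR, featureCounts and DESeq2 with the mm10 build are named per the submitters' processing notes. Versions, settings, annotation and strandedness were not given in the sources used here. Of 54532 identifiers, 54495 matched a symbol of GENCODE M21 (GRCm38), whose coordinates are printed counted from 1.

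Counts were tested with edgeR 4.0.16 in R 4.3.3 after filterByExpr (15348 genes tested, 39184 removed), TMM scaling and a robust quasi-likelihood fit of 3 groups with 6 residual degrees of freedom, two-sided, with a threshold of 0.05 on the Benjamini-Hochberg adjusted p. The biological coefficient of variation was 16.1%. The code was tested on simulated data. Within groups, chi-square divided by its degrees of freedom was 9.927 to 137.595 for pairs of libraries, more than sampling noise gives. Floors of 3 counts cover counting error only, since PCR reads are not independent molecules. Totals of 15962399 to 19441239 limit precision for members under 1 CPM.

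Alternatives were other scalings and filters, DESeq2 1.42.0, limma-voom (limma 3.58.1), a fit of 6 libraries, a replicate block, single libraries left out, stricter thresholds, and a correction of each library by splines of gene length and GC content. Near-identical copies were sought with BLAST+ 2.17.0. Values of every library are given for the 2 members with the smallest p at day 7 in each role group, for all members of the helicase, GINS, nucleotide supply and G1/S groups, for members called lower or called at day 14, and for a member that was not tested. Library values of Orc6, Cdc45 and Pcna were added after their values were seen. Of other lists, up to 4 genes of smallest p and those lower at day 7 are named. Members and lists were chosen with earlier results of these data known.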

Additional observations from a re-analysis of the deposited data

Results flagged for a closer look

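The levels of 4 members differed between day 14 and day 7 by a test of that difference itself. The log2 difference, day 14 minus day 7, was -0.55 for Rrm1, -1.18 for Rrm2, -1.53 for Uhrf1 and -1.68 for Ccne1. Since both groups are compared with the same 3 control libraries, the difference equals that between their changes against control. None of these 4 calls held under every alternative setting.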

How the results depend on the processing

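Of the 14 calls at day 7, 6 held under all 20 alternatives. With each library left out in turn, 9 to 14 members were higher at day 7 and 0 to 1 lower, and 3136 to 5328 genes passed. The lower count was 0 with no filter on low counts, with the replicate block, with the length and GC correction, at an adjusted p under 0.01 and with an absolute log2 change of at least 1. The last left 7 members higher. All genes called at day 7 numbered 2631 at an adjusted p under 0.01 and 547 with the fold limit.

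At day 14 against control, 270 genes passed, and 1300 with no filter, 1042 by DESeq2, 631 by limma-voom, 164 with only 6 libraries, 113 with the replicate block, 146 with the correction, 11 at 0.01 and 35 with the fold limit, and 9 to 1940 with a library left out, 9 without control library 1 and 1940 without control library 3. No member was called under any of these. Between day 14 and day 7, 1011 genes passed, and 1539 by limma-voom, 264 at 0.01, 212 with the fold limit and 366 to 1427 with a library left out. Members lower numbered 7 with no filter, by DESeq2, by limma-voom and with only 6 libraries, 2 with the replicate block, 0 at 0.01 and 0 to 6 with a library left out. The causes were not tested.

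The replicate numbers were not treated as pairs. Deviations of same-numbered libraries from their group means correlated between -0.112 and 0.037, and a library correlated best with its own number in 1 of 18 cases. With the replicate block, 12 members were higher at day 7. No call reversed. In 82 cases a member not called in either setting changed sign. Orc1 had too few counts to be tested, and Fen1 had 2, 10 and 4 counts in control.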
